A study of Mus musculus with 2 samples.

Results

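The genes described here encode the proteins of the cytosolic ribosome, together with their paralogs, and were measured in the testis of a single male mouse of the inbred strain C57BL/6J, an adult 10 weeks of age. Members were the protein-coding genes whose symbol is Rpl or Rps followed by a number and, where present, one of the endings a, x, l, al or l1, plus Rplp0, Rplp1, Rplp2 and Rpsa. This gave 83 members of 43346 genes, of which 76 are the canonical genes (30 of the small and 46 of the large subunit) and 7 are paralogs (Rpl3l, Rpl7l1, Rpl10l, Rpl22l1, Rpl36al, Rpl39l and Rps27l). PolyA mRNA was sequenced in 2 libraries, technical replicates 1 and 2 of 1 biological replicate, and replicate 2 was made later, in 2015, per the labels. There is 1 group, with no treatment and no altered allele named in the labels, so every value describes this animal, and spread between the libraries is technical.

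A ribosome has a small subunit, which reads the codons of the mRNA, and a large subunit, which joins the amino acids, and the proteins of both sit on a scaffold of ribosomal RNA. Most of these proteins are present in 1 copy per ribosome, and their genes are expressed in all growing cells. The testis is known for exceptions: the X chromosome is silenced during meiosis in male germ cells, several ribosomal protein genes lie on the X chromosome, and autosomal paralogs such as Rpl10l and Rpl39l are expressed in those cells. Some of these paralogs arose by copying of a spliced mRNA back into the genome, which leaves a coding region without introns.

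In these libraries Rpl10l, Rpl39l and Rpl36al exceeded their X-linked parents in both replicates, while Rps27l, Rpl7l1 and Rpl3l lay below their autosomal parents in both. The canonical X-linked members were 4 of the 5 lowest canonical members in replicate 2 and lay near the middle in replicate 1. The level of most canonical members differed strongly between the libraries. These points are given in turn.

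The coding sequences of the 2 germ cell paralogs and their parents are shown first, because they set how the reads of a pair can be told apart. Bases that differ within a pair are in capitals. The whole coding region of Rpl39 and Rpl39l has 156 bases in each, of which 23 differ (85.3% identity).
Rpl39: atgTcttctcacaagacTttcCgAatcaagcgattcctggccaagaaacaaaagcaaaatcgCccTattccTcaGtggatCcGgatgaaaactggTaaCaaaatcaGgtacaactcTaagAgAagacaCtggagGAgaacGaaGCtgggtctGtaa
Rpl39l: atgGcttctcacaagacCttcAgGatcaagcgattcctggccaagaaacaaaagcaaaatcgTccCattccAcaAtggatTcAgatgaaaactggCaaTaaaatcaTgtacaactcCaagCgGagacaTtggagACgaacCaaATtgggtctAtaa
For Rpl10 and Rpl10l, whose coding regions have 645 bases each and 98 differences (84.8% identity), bases 94 to 213 of the coding region are shown, where 25 bases differ.
Rpl10: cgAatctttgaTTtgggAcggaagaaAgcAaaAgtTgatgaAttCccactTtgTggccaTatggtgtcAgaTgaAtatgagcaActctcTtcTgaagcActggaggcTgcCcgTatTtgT
Rpl10l: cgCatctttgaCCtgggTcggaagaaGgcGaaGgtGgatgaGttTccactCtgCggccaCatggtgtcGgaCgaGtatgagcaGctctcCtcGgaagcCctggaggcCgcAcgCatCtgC

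Of the 98 differences between Rpl10l and Rpl10, 89 fell at the third base of a codon, 7 at the first and 2 at the second. For Rpl39l and Rpl39 the counts were 16, 5 and 2, and for Rpl36al and Rpl36a, with 39 differences over 321 bases (87.9% identity), 35, 4 and 0. The annotated Rpl10l transcript has 1 exon where that of Rpl10 has 7, and that of Rpl36al has 2 where that of Rpl36a has 5. Rpl39l and Rpl39 both have 3 exons. Sequences and exon counts come from the GENCODE M21 transcripts (GRCm38, the same assembly as mm10).

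Levels are given as TPM, which scales estimated reads for transcript length and library depth to the same total, with the value of replicate 1 first and that of replicate 2 second. The expected counts of all genes summed to 31995377 and 20675551, and those of the members to 121080 and 233681, which is 0.378% and 1.13% of each library. In TPM the members summed to 12788 and 34768, or 1.28% and 3.48% of the total (mean 2.38% ± 1.55, SD, n = 2 technical libraries). The small subunit genes gave 6872 and 14655 TPM and the large subunit genes 4674 and 18816 TPM, so the order of the subunits differed between the libraries. Rps24 alone held 24.6% and 4.47% of the members' TPM.

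The testis label was checked against marker genes. Spermatid markers (Prm1, Prm2, Tnp1, Tnp2, Acrv1 and Spaca1) summed to 5424 and 45254 TPM and spermatocyte markers (Sycp1, Sycp3, Ldhc, Pgk2 and Hormad1) to 5858 and 5700 TPM. Sertoli cell markers summed to 988 and 1171 TPM, Leydig cell markers to 425 and 2072 TPM, spermatogonia markers to 61.4 and 116 TPM, red blood cell markers to 27.2 and 328 TPM and striated muscle markers to 7.38 and 67.6 TPM. The sums of all lists but the spermatocyte markers were thus higher in the library where the ribosomal sum was higher, and their part in the ribosomal values was not tested. By the comparison of the libraries described below, in which 32.1% of all tested genes were called higher in replicate 2 and 23.9% lower, 4 of 6 spermatid markers were higher and 1, Spaca1, lower, and 5 of 5 red blood cell markers were higher. Of the 5 spermatocyte markers 3 (Sycp1, Sycp3 and Hormad1) were lower, while Ldhc, at 2850 and 4131 TPM, held most of the sum in replicate 2. Within 1 library of whole tissue, a marker sum cannot tell the number of cells of a type from the RNA per cell. Between these technical libraries of 1 animal the differences are technical. The median log2 ratio was 2.22 for spermatid, -1.93 for spermatocyte and 3.87 for red blood cell markers. After the GC correction described below it was 0.31, -0.15 and 3.18.

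Of the 83 members, 78 reached 1 TPM in both libraries. The 5 that did not were the muscle paralog Rpl3l, listed at 0 and 0.49 TPM, and 4 canonical genes that fell under the limit in replicate 1 alone: Rpl36 (0.21 and 778 TPM), Rps15 (0.44 and 530 TPM), Rpl8 (0.48 and 501 TPM) and Rpl18 (0.54 and 383 TPM). In replicate 2 the 76 canonical genes ran from 39.6 TPM (Rpl39) to 1554 TPM (Rps24), and 72 of them were at 100 TPM or more. In replicate 1 they ran from 0.21 to 3147 TPM, and 28 were at 100 TPM or more.

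**Figure D1:**
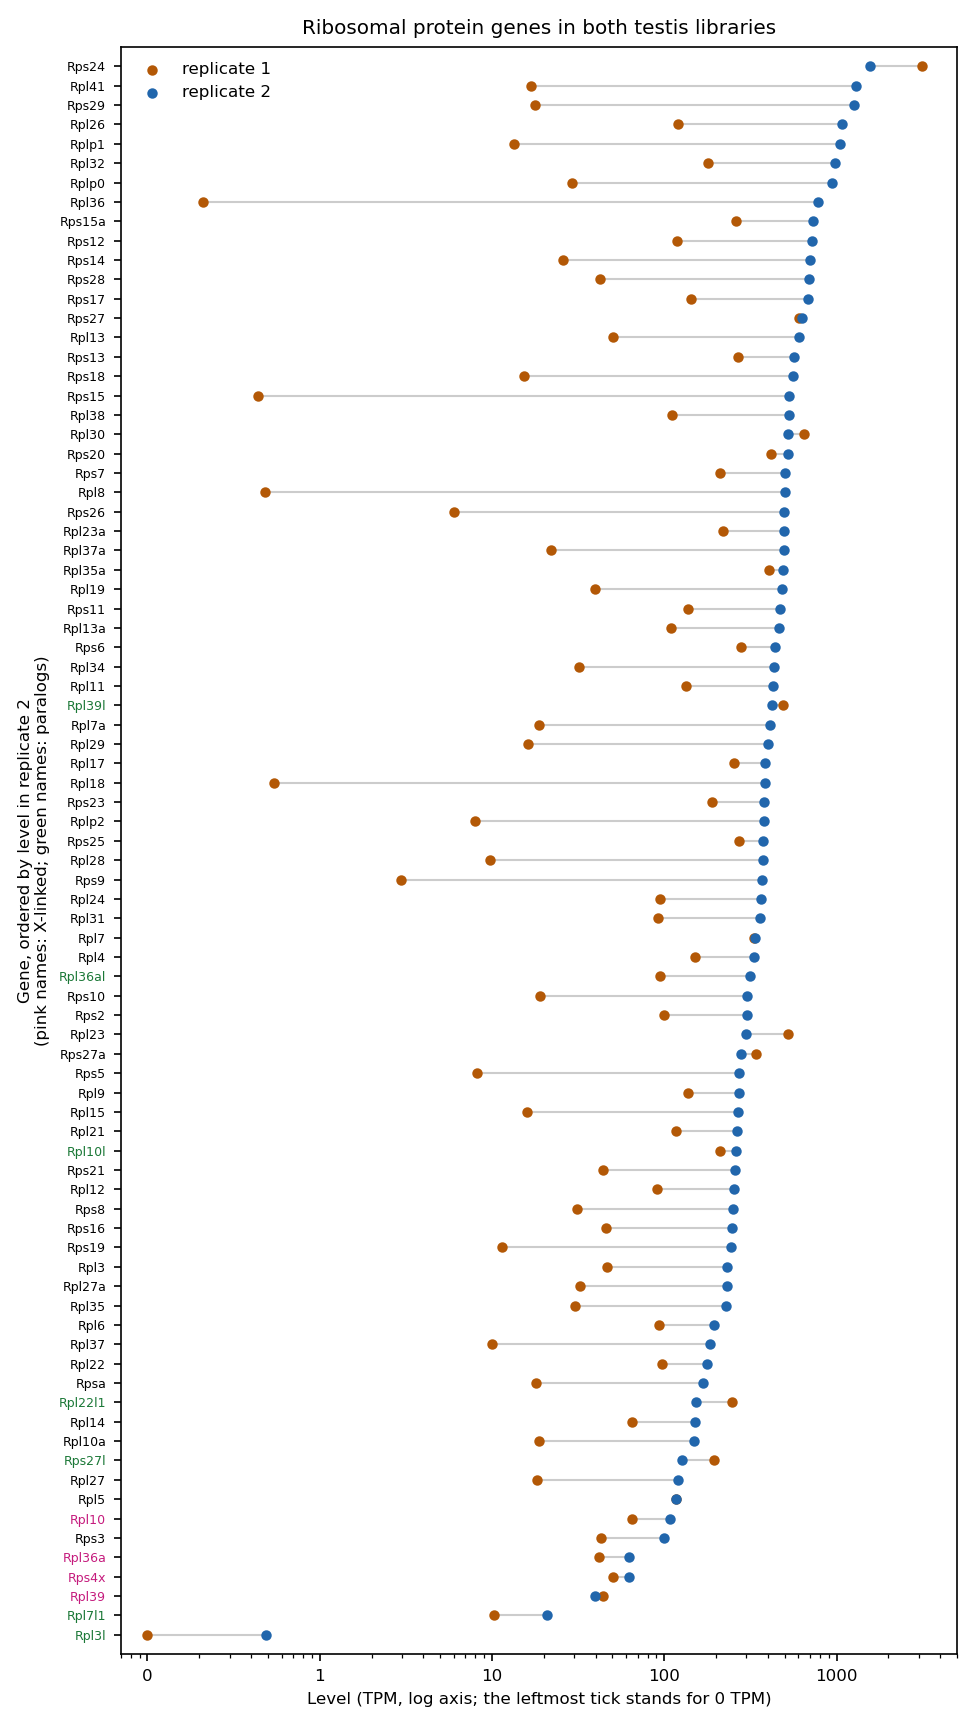
Level of 82 of the ribosomal protein genes in both libraries, in TPM on a log axis, with genes ordered by replicate 2 and 1 point per library; the leftmost tick stands for 0 TPM. Replicate 2 (blue) forms a narrow band with the 4 X-linked genes (pink names) near its lower end, and replicate 1 (orange) is spread from 0 for Rpl3l to 3147 TPM for Rps24.

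The canonical members were much less alike in replicate 1 than in replicate 2. The SD of log2 TPM over the 76 genes was 2.51 in replicate 1 and 1.02 in replicate 2. Of the 10 highest canonical genes of each library, 1 was shared, Rps24. Across the 83 members the Spearman correlation of TPM between the libraries was 0.157, whereas across 11725 protein-coding genes at 1 TPM or more in both it was 0.737. These are descriptions across genes of the same 2 libraries, and genes are not independent replicates.

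Among the small subunit genes Rps24, which encodes a protein needed for maturation of the small subunit rRNA, was the highest member in both libraries, at 3147 and 1554 TPM (19353 and 6507 counts). It was the only member called lower in replicate 2, by a factor of 2.35 (95% interval 2.29 to 2.42, counting error only). With plain total counts as library sizes it was not called, and 0 members were lower. Rps27, a zinc finger protein, stood at 609 and 631 TPM, and the values of the 2 libraries lay close together. Its annotated transcript has 255 bases, which is shorter than the labelled library size range of 350 to 450 bases. The deposited effective length was 77.3 and 84.2 bases, so its TPM rests on a short effective length.

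Rps29, another small zinc finger protein, gave 17.9 and 1257 TPM (80 and 3650 counts), and Rps15a gave 259 and 729 TPM. Of the Rps15a level, 47.9 and 407 TPM came from Rps15a-203, a transcript of 250 bases with a similarly short effective length (73.1 and 79.8 bases). Rps29 was among the highest genes of replicate 2 and among the lower ones of replicate 1. Its ratio of replicate 2 to replicate 1, on scaled counts, was 57.7 (46.2 to 72.9), and that of Rps15a was 1.96 (1.86 to 2.07), just under the ratio limit of 2. Rps3, which lines the entry of the mRNA channel, had the lowest mean level of the autosomal small subunit genes, at 43.0 and 99.7 TPM.

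Among the large subunit genes Rpl41, which encodes a very short protein, gave 16.9 and 1292 TPM (140 and 5726 counts). The stalk proteins, which bind the elongation factors, were also higher in replicate 2: Rplp0 gave 28.9 and 939 TPM, Rplp1 13.5 and 1050 TPM and Rplp2 8.00 and 381 TPM. On scaled counts the ratio of replicate 2 to replicate 1 was 51.7 (43.7 to 61.6) for Rpl41, 25.7 (23.9 to 27.7) for Rplp0 and 63.8 (51.8 to 79.6) for Rplp1. These 3 genes were near the top of the large subunit in replicate 2 and below its median in replicate 1, whereas Rplp2 was near the median in replicate 2. Rpl26 gave 120 and 1077 TPM, a ratio of 7.32 (6.81 to 7.87), and Rpl32 180 and 982 TPM, a ratio of 4.47 (4.20 to 4.75).

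Rpl30, by contrast, gave 646 and 522 TPM (5218 and 2906 counts) and was not called in either direction. Rpl5, which carries the 5S rRNA into the large subunit together with Rpl11, gave 117 and 118 TPM, and Rpl11 gave 134 and 430 TPM. Rpl27, at 18.3 and 121 TPM, was the lowest autosomal canonical gene by mean TPM. Its near-identical pseudogene copies, described below, held 56.6% and 58.1% of the counts of gene and copies together, so this rank is uncertain. Members of the same subunit thus had unequal ratios between the libraries.

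The 2 libraries were compared gene by gene with an exact two-sided binomial test on the rounded expected counts, with Benjamini-Hochberg adjustment over 18581 genes. Calls required a ratio of at least 2 together with an adjusted p below 0.05. What is compared is the read counts of 2 libraries, and no condition differs between them. Of the 82 members tested, 51 were called higher in replicate 2, 1 was called lower and 30 were not called. Over all tested genes 32.1% were called higher, 23.9% lower and 56.0% in either direction. The median log2 ratio of replicate 2 over replicate 1 was 2.11 for the members and 0.00 for all tested genes. Large and small subunit genes had like counts, with 31 of 46 and 19 of 30 called higher (medians 2.19 and 2.23). Among the 6 tested paralogs, 1 was called higher (Rpl36al), with a median of -0.25.

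The most unequal members were all higher in replicate 2. Rpl36 had 1 and 2404 counts, a scaled ratio of 3038 with a counting interval from 545 to 120050, and Rps15, which is needed for export of the small subunit from the nucleus, had 3 and 2341 counts, a ratio of 986 (337 to 4786). Rpl8, which lies next to the site where amino acids are joined, had 7 and 4684 counts (ratio 846, interval 410 to 2105). Rpl18 had 27 and 2649 counts (ratio 124, interval 85.02 to 189) and Rps9 49 and 2931 counts (ratio 75.6, interval 57.03 to 102). In each of these 5 genes replicate 1 held 1 to 49 counts and replicate 2 held 2341 to 4684.

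GC content moved with these ratios. Across all 18516 tested genes with a transcript sequence the Spearman correlation of the log2 ratio with transcript GC content was 0.885, and across the 82 members it was 0.70. Both describe genes of the same 2 libraries. Of the members with the lowest GC content (up to 50.2%) 7 of 29 (24.1%) were called higher. Of the middle ones 19 of 26 (73.1%) were, and of the highest (above 53.6%) 25 of 27 (92.6%). The median log2 ratios of these groups were 0.42, 2.11 and 4.30. Over all tested genes, of any GC content, 32.1% were called higher. The rise with GC content was thus also that of all tested genes and is not particular to the members.

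**Figure D2:**
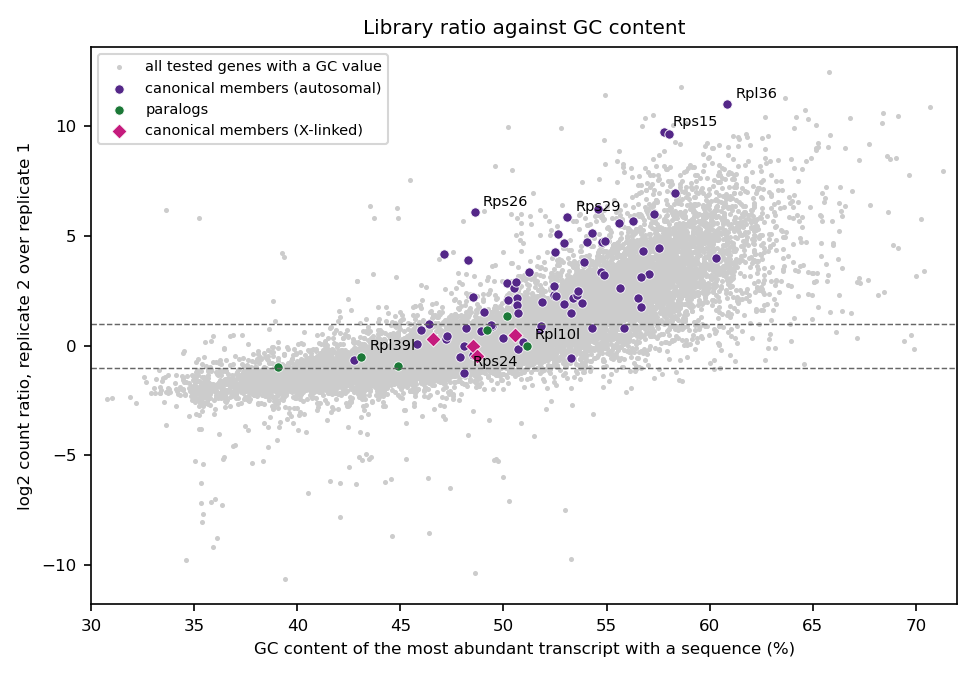
Log2 ratio of counts, replicate 2 over replicate 1, against the GC content of each gene's transcript, for all tested genes (grey), autosomal canonical members (purple), paralogs (green) and X-linked canonical members (pink diamonds); dashed lines mark a ratio of 2 in each direction. Members follow the rise of the grey cloud with GC content, most of them in its upper part, and Rps26 stands far above genes of like GC content.

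Setting each gene's expected ratio to the median of genes of similar GC content lowered the members' median log2 ratio to 1.04, and 43 of 82 members were then called higher, against 10.9% of all genes, and 4 lower, against 8.93%. Of these 43 genes, 40 were also called higher without the correction. The members called lower were Rpl23, Rps20, Rps24 and Rpl12, of which 2 turned direction, Rpl12 with a log2 ratio of 1.78 before and -1.01 after the correction and Rps20 with 0.78 and -1.63. For Rpl23, Rps20 and Rpl12 the GC content used was that of a leading form not annotated as coding (53.3%, 55.8% and 56.7%). Their coding forms Rpl23-201, Rps20-203 and Rpl12-203 have 46.4%, 41.3% and 51.6%. The corrected ratios of these genes, and both turns of direction, thus depend on the form chosen. The correlation with GC content among members was 0.19 after the correction. Rps26 had a GC content of 48.6% and gave 6.03 and 498 TPM (34 and 1829 counts). Its log2 ratio was 6.07 before and 6.25 after the correction. Rpl37a, at 47.1% GC, gave 22.0 and 492 TPM, with log2 ratios of 4.19 and 4.75. Rps26 and Rpl37a were singled out after their values were seen.

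The level of the members within a library was related to GC content differently in the 2 libraries. In replicate 1 the Spearman correlation of TPM with GC content over the 83 members was -0.56, and in replicate 2 it was 0.20. With transcript length it was -0.06 in replicate 1 and -0.49 in replicate 2. These are descriptions across genes that share a library.

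Each paralog was set beside its parent within a library, which keeps depth and sample equal. A ratio of TPM was called where the exact 95% interval (Clopper-Pearson, on length-scaled counts, counting error only) excluded 1 on the same side in both libraries. Of 8 pairs, 3 were called higher for the paralog, 3 lower, and 2 were not called. The pairs include Rps4l, which is annotated as a transcribed processed pseudogene and is therefore not a member.

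Rpl39l (chr16:10170226-10174911, plus strand) gave 487 and 423 TPM (5975 and 3344 counts), against 44.4 and 39.6 TPM (408 and 234 counts) for Rpl39 (chrX:37082520-37085402, minus strand), a protein of the tunnel through which the new chain leaves the ribosome. The ratio was 11.0 (9.92 to 12.2) in replicate 1 and 10.7 (9.36 to 12.3) in replicate 2. It was the most even of the pairs between the libraries. Rpl39l thus held 91.6% and 91.4% of the pair's level. The deposited posterior SD of the count, which measures how surely reads could be assigned, was 0 for Rpl39l in both libraries and 1.43 and 1.98 reads for Rpl39.

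Rpl10l (chr12:66283379-66284401, minus strand) gave 210 and 259 TPM (3799 and 2997 counts), against 64.6 and 108 TPM for Rpl10 (chrX:74270812-74273135, plus strand), which joins the large subunit late in its maturation. The ratio was 3.24 (2.997 to 3.51) and 2.41 (2.23 to 2.61). Rpl10l held 76.4% and 70.7% of the pair. The GC content of the whole transcripts was 51.1% for Rpl10l and 50.6% for Rpl10. This pair is thus nearly matched in transcript GC content, the measure that moved with the library ratio. The coding regions were less alike, with a GC content of 58.76% for Rpl10l and 51.01% for Rpl10. Whether that difference affected the ratio of the pair was not tested.

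Rpl36al (chr12:69182731-69184083, minus strand) gave 94.1 and 314 TPM, against 41.8 and 62.5 TPM for Rpl36a (chrX:134585654-134588062, plus strand). The ratio was 2.25 (1.96 to 2.60) and 5.03 (4.40 to 5.75), and the intervals of the libraries did not overlap. All 3 pairs called higher for the paralog have an autosomal paralog and an X-linked parent.

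The 3 pairs called lower have autosomal parents. Rps27l gave 194 and 127 TPM against 609 and 631 TPM for Rps27, a ratio of 0.319 (0.294 to 0.347) and 0.201 (0.179 to 0.224). Rpl7l1, which is known from ribosome assembly, gave 10.3 and 20.9 TPM against 332 and 336 TPM for Rpl7, a ratio of 0.031 (0.028 to 0.034) and 0.062 (0.057 to 0.067). On counts without length scaling the libraries gave opposite directions for Rps27l over Rps27, with a ratio of 1.30 in replicate 1 (1329 and 1021 counts) and 0.767 in replicate 2 (558 and 728 counts). The mean log2 ratio was then -0.0017, against -1.98 on TPM, where the short annotated transcript of Rps27 enters.

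Rpl3l, the form of heart and skeletal muscle, had 0 and 8 counts, against 1127 and 3549 counts for Rpl3 (46.5 and 232 TPM). In replicate 2 the parent was 473 times higher (240 to 1099), and in replicate 1, from the bound of the exact interval at 0 counts, at least 222-fold higher. Of 13 striated muscle markers, 5 were tested and 4 of these were called higher in replicate 2, where 32.1% of all tested genes were. Tnni3 (5.52 and 56.8 TPM) made up most of their sum, Tnnt2 gave 1.16 and 7.42 TPM, and Ckm, Acta1 and Mb were listed at 0 in replicate 1 and at 0.59, 0.12 and 0.19 TPM in replicate 2.

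The libraries gave opposite directions for 2 pairs. Rpl22l1 gave 247 and 153 TPM against 96.8 and 177 TPM for Rpl22, a ratio of 2.55 (2.35 to 2.77) in replicate 1 and 0.866 (0.785 to 0.954) in replicate 2. Rps4l (chr6:148354656-148355598, plus strand) gave 0.37 and 149 TPM (6 and 1554 counts) against 50.4 and 62.0 TPM for the X-linked Rps4x, a ratio of 0.0073 (0.0027 to 0.016) in replicate 1 and 2.39 (2.19 to 2.63) in replicate 2. Its longest open reading frame has 789 bases against 792 for the Rps4x coding region, with 80.1% identity, and 1 exon against 7.

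**Figure D3:**
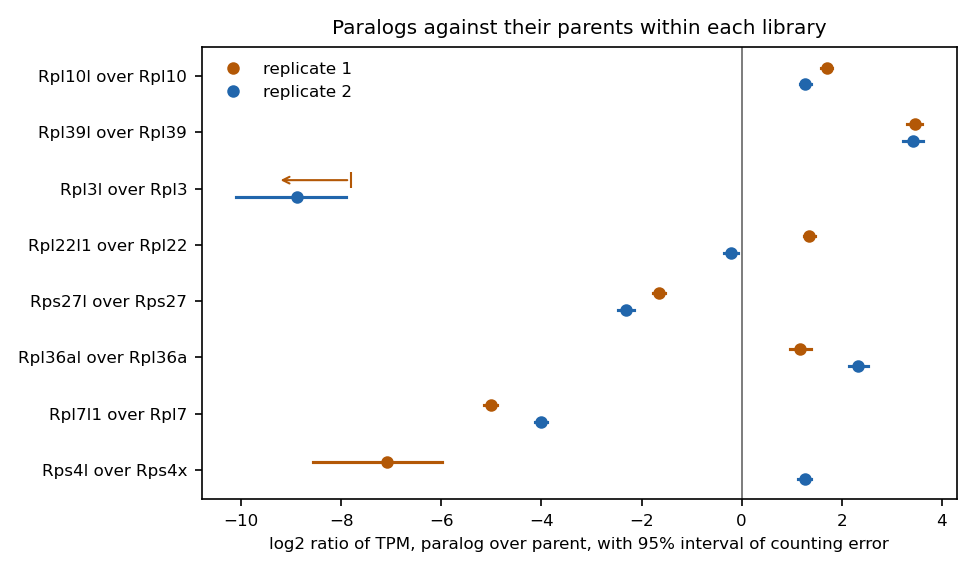
Log2 ratio of TPM, paralog over parent, for 8 pairs in replicate 1 (orange) and replicate 2 (blue), with points for the ratio, lines for the exact 95% counting interval, and an arrow for Rpl3l in replicate 1, where the paralog had 0 counts and only the upper bound is drawn. Rpl10l, Rpl39l and Rpl36al lie right of 0 in both libraries, and the points of Rpl22l1 and Rps4l fall on opposite sides.

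The pair ratios also moved with GC content. In 6 of the 7 pairs with a ratio in both libraries, the ratio rose from replicate 1 to replicate 2 where the paralog was richer in GC than its parent and fell where it was poorer. The widest gap was that of Rps4l and Rps4x (59.1% and 48.5% GC), with a change of 8.35 on the log2 scale. Rpl22l1, with a GC difference of -8.21 points from Rpl22, changed by -1.56. Rpl39l, with a GC difference of -5.59 points from Rpl39, changed by -0.04. The exception in sign was Rpl10l, with a GC difference of 0.56 points and a change of -0.43.

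The 4 X-linked canonical members are Rpl10, Rpl36a, Rpl39 and Rps4x, and none of the 4 was called between the libraries. Over all tested genes 8182 of 18581 were not called. Rpl36a, Rpl39 and Rps4x are among the 29 members of lowest GC content, of which 21 were not called. In replicate 2 they ranked 5, 3, 1 and 2 from the lowest of the 76 canonical genes, with levels from 39.6 to 108 TPM against an autosomal canonical median of 384 TPM. In replicate 1 they ranked 41, 32, 36 and 39, with levels from 41.8 to 64.6 TPM against a median of 48.6 TPM. The X-linked levels thus differed by less than the ratio limit between the libraries, and the autosomal median by more. The log2 ratio of the X-linked to the autosomal median was -0.04 in replicate 1 and -2.62 in replicate 2.

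Against autosomal canonical members within 3 points of the GC range of the X-linked genes (43 genes), a comparison chosen after seeing the data, that log2 ratio was -1.34 in replicate 1 and -2.72 in replicate 2. In replicate 1, 14 of the 37 autosomal genes within 3 points of Rpl10 lay below it, 7 of 29 below Rpl39, 4 of 18 below Rpl36a and 8 of 29 below Rps4x. In replicate 2 the counts were 1, 0, 0 and 0. Among genes of like GC content the X-linked members were in the lower part in both libraries, and in replicate 2 the only gene below any of them was 1 gene below Rpl10.

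The level of parent and paralog together was set against the same autosomal median. In replicate 2 the sum of Rpl10 and Rpl10l was 367 TPM, 0.956 times the median, that of Rpl36a and Rpl36al 376 TPM, 0.981 times, and that of Rpl39 and Rpl39l 463 TPM, 1.21 times. Rps4x and Rps4l summed to 211 TPM, 0.549 times the median. In replicate 1, where the median was 48.6 TPM, the factors were 5.65, 2.80, 10.9 and 1.05. The sums of the first 3 pairs came near the median of replicate 2 and lay above that of replicate 1. This median covers autosomal canonical members of any GC content. In replicate 1 the medians within 3 points of the GC content of Rpl10, Rpl36a and Rpl39 were 118, 200 and 150 TPM. The sums there were 274, 136 and 531 TPM, so that of Rpl36a and Rpl36al lay below the median of like GC content.

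**Figure D4:**
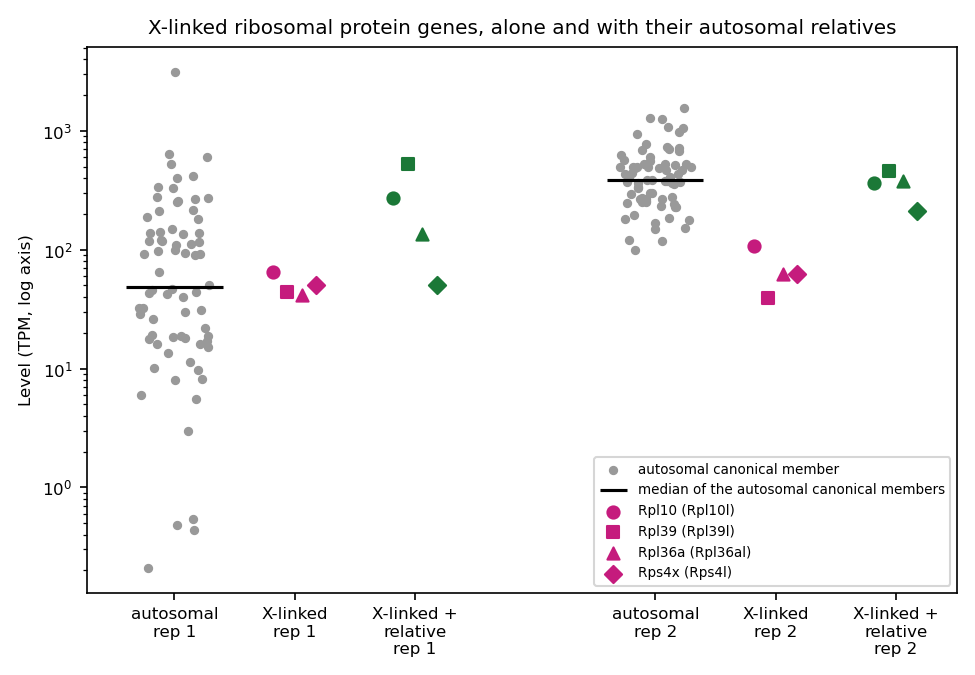
Level in TPM (log axis) of the 72 autosomal canonical members (grey, with a bar at their median), of the 4 X-linked members alone (pink) and of each with its autosomal relative added (green, same symbol; Rps4l is annotated as a pseudogene), for each library. In replicate 2 the X-linked genes lie at 39.6 to 108 TPM, below or at the edge of the grey points, and the sums with Rpl10l, Rpl36al and Rpl39l lie at 367 to 463 TPM, near the bar at 384 TPM.

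Ribosomal protein genes that the name pattern leaves out were mixed. Fau, a fusion of a ubiquitin-like and a small subunit protein, gave 12.7 and 558 TPM. Rack1, a scaffold on the small subunit, gave 26.9 and 141 TPM. Both were called higher in replicate 2. Rps3a1 gave 204 and 250 TPM and Rps27rt, a copy of Rps27, 59.8 and 93.9 TPM, and neither was called.

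Genes that serve the ribosome without being part of it were taken from 5 lists. Of 14 elongation factor and related mRNAs that begin with a pyrimidine tract, 5 were called higher and 2 lower, with a median log2 ratio of 0.25 (0.00 over all tested genes). Eef1a1, which delivers tRNA, gave 1375 and 2872 TPM, Pabpc1, which binds polyA tails, 2507 and 1734 TPM, and Tpt1 2039 and 1001 TPM. Of 19 ribosome biogenesis genes, 8 were called higher and 3 lower, and the highest were Nop58 (303 and 116 TPM), Wdr12 (105 and 107 TPM) and Ncl (111 and 69.1 TPM). The shares called higher were 35.7% and 42.1% in these 2 lists, near the 32.1% of all tested genes.

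Of 9 genes of large subunit maturation, 2 were called higher (22.2%) and 1 lower (11.1%), against 32.1% and 23.9% of all tested genes. The export adaptor Nmd3 gave 162 and 74.9 TPM, Sbds 71.9 and 91.8 TPM and Znhit3 35.2 and 56.1 TPM. Of 11 genes of RNA polymerase I, which transcribes ribosomal RNA, 7 were called higher (63.6%) and 2 lower (18.2%), with Polr1d at 56.97 and 233 TPM, Taf1b at 69.2 and 41.6 TPM and Taf1d at 73.4 and 21.5 TPM. Of 9 genes that control translation of ribosomal protein mRNAs, 7 were called higher (77.8%) and 2 lower (22.2%). With the GC correction the median log2 ratio went from 1.10 to 0.64 for the RNA polymerase I list. For the translation control list it went from 1.82 to 0.52. The cap binding protein Eif4e gave 190 and 102 TPM, Larp1, which binds the pyrimidine tract, 59.7 and 150 TPM, and the kinase Mtor 11.7 and 70.5 TPM.

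Ribosomal protein mRNAs are known for such a tract at their first base, the 5' terminal oligopyrimidine. The start was read in the annotation, on the transcript strand, for the most abundant protein-coding transcript of each gene that had a sequence. Of 15617 tested protein-coding genes, 353 (2.26%) started with C followed by 4 or more bases that are C or T. Of the 82 members, 10 (12.2%) did. Among them were Rpl4, Rpl30, Rpl32, Rpl36, Rpl37, Rpl37a, Rps3, Rps15a and Rps21. An annotated start is not a measured one, and a missing match says only that these letters are not at the annotated start.

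Ribosomal protein genes have many processed pseudogenes, and reads from near-identical copies are divided between them. Of 7902 annotated pseudogenes searched, 404 matched 69 of the members at 95% identity or more over at least 80% of their length and 200 bases. Rpl21 had the most copies (41), and 14 members had none. The copies held 9188 and 7218 counts, which is 7.05% and 2.996% of the counts of members and copies together, and 288 and 247 of them were at 0 counts.

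Assignment was close for most members. Of 82 members with a mean of 100 counts or more, 71 had a posterior SD under 1% of the count over both libraries together, with a median of 0.134%, and 1 was above 5%. That member was Rpl27 (144 and 739 counts, posterior SD 14.6 and 36.9), which has 2 copies identical to it over their aligned length, Gm11518 (184 and 649 counts) and Rpl27-ps3 (0 and 374 counts). The next over both libraries were Rpl10a (280 and 1346 counts, posterior SD 26.5 and 45.7), Rpl24 (864 and 2469 counts, posterior SD 84.4 and 6.04), Rpl31 (682 and 2080 counts, posterior SD 27.6 and 39.4) and Rpl5 (3133 and 1575 counts, posterior SD 53.2 and 38.5). For Rpl5 the copy Gm15500 was given more counts than the gene itself, 3526 and 1870. In replicate 1 alone the posterior SD was also above 5% for Rpl10a (9.45%) and Rpl24 (9.77%). Copies were given more counts than the gene in replicate 1 for Rpl15 (1077 against 590) and Rpl27a (958 against 690) too. Values of these 7 members are uncertain for this reason.

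At the level of transcripts the libraries differed as well. In 63 of the 82 members with a level in both libraries the same transcript was the most abundant, and in 19 it was not. Of 61 members with more than 1 expressed transcript, 42 (68.9%) kept the same leading one. Annotated non-coding forms (retained introns, processed transcripts and targets of nonsense-mediated decay) led in 9 members in replicate 1 and in 1 in replicate 2. They held 13.1% and 3.17% of the members' TPM.

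For Rps16 a retained-intron form, Rps16-203, held 100% of the level in replicate 1 (45.9 TPM) and 1.08% in replicate 2, where the coding form Rps16-201 held 98.7%. For Rpl23 the processed transcript Rpl23-204 held 95.9% and 14.5%, and for Rpl12 a form marked for decay, Rpl12-201, held 95.4% and 35.8%. The leading form of Rps24, Rps24-201, was coding and held 99.3% and 95.5%, and Rpl39-201 held 99.6% and 99.3% of Rpl39. Rpl39l had 2 coding forms, of which Rpl39l-201 held 79.8% and 80.95%. The forms of the X-linked Rpl39 and of its paralog were thus the same in both libraries.

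The effective length by which a gene's reads are scaled to TPM is a mean over its forms, weighted by their shares. It differed by more than 1.5 times between the libraries in 7 members, most in Rpl18 (2314 bases in replicate 1 and 505 in replicate 2). The others were Rpl15, Rps2, Rps20, Rpl6, Rps3 and Rpl12. In these genes the ratio of TPM between the libraries is not the ratio of counts, and the comparison of the libraries above was made on counts.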

How the data were processed

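PolyA mRNA of 1 testis was sequenced in 2 technical libraries. Per the deposited notes, the authors quantified each on mm10 with annotation M4; no aligner or quantifier is named in the sources used here. Expected counts (estimated reads, rounded here) were deposited by the authors, as were TPM, FPKM (fragments per length and depth) and, for transcripts, the percent of the gene's level. Posterior mean counts and SDs were deposited too. Names, GC content and sequences came from GENCODE M21, matched for 42462 of 43346 genes. Identity of paralogs was computed on coding bases, in place of the planned protein comparison.

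Counts were tested over the 18581 genes with a mean of 10 or more, with TMM library sizes (edgeR 4.0.16, factors 0.904 and 1.11). Log2 ratios have 0.5 added to each count. The test was checked on simulated counts that held counting error only, with no GC shift and no PCR copies. That check cannot tell how the test behaves on these libraries. Intervals cover counting error only, because PCR copies were not told apart. Pseudogene copies came from BLAST 2.17.0, the GC correction from 100 bins of equal gene number. Alternatives used plain totals, DESeq2 1.42.0 size factors, other filters and ratio limits, an edgeR exact test with an assumed coefficient of variation of 0.1, other units and each library alone. Python 3.11.15, scipy 1.17.1 and R 4.3.3 were used.

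Members and lists were chosen with earlier results of these data known. The text names the 10 members of highest mean TPM, the 5 lowest canonical members, all pairs, the 5 largest called ratios in each direction, the 5 highest relative posterior SDs, the ribosomal proteins outside the name pattern and the 3 highest genes of each list; other members were named to show roles or after their values were seen. Some of these genes are not reported here.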

Additional observations from a re-analysis of the deposited data

How the results depend on the processing

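With other scalings, filters, ratio limits, units or the GC correction, 42 to 62 members were called higher in replicate 2 (51 as reported). The share of all tested genes called higher was 32.1% as reported. It ranged from 10.9% with the GC correction to 37.3% with a ratio limit of 1.5. The members called lower numbered 1 as reported, against 23.9% of all tested genes. With plain total counts, which shifts every log2 ratio by 0.29, they numbered 0 (15.4% of all tested genes). They numbered 4 with a ratio limit of 1.5 (33.9% of all), 0 with a ratio limit of 4 (2.70%) and 4 with the GC correction (8.93%). The summed level was 2.38% of TPM as reported and 0.754% as a share of expected counts. On expected counts the log2 ratio of Rps27l over Rps27 was -0.0017 and no longer called, with opposite directions in the libraries. With 1 library left out, the mean log2 ratio of Rpl22l1 over Rpl22 (0.57) ranged from -0.21 to 1.35 and that of Rps4l over Rps4x (-2.92) from -7.09 to 1.26; replicate 1 alone gives 1.35 and -7.09, replicate 2 alone -0.21 and 1.26. The directions of Rpl10l, Rpl39l, Rpl36al and Rpl7l1 held in all 7 alternatives run for each, but not all of these could have changed them. FPKM and the intervals from posterior SDs use nearly or exactly the same ratio as TPM. Each library alone had to give the same direction, because a call required both libraries to agree. Expected counts, posterior mean TPM and the most abundant coding transcript could have changed a direction. The value for Rpl3l (-8.89) rests on replicate 2. No paired analysis was possible because there is 1 group. Leaving out a library leaves no comparison between libraries. With 1 animal, no value covers differences between animals, and genes with few counts in replicate 1, such as Rpl36 and Rps15, have wide intervals.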
